A study of Mus musculus with 24 samples.

Results

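Described here are 10 genes of the hypoxia response that lie outside glycolysis: Egln1, Egln3, P4ha1, P4ha2, Bnip3, Hilpda, Ndrg1, Vegfa, Ankrd37 and Kdm3a. They were taken by symbol from a deposited table of 24537 mouse genes, and all 10 were among the 13044 genes with enough counts to be tested. It holds RNA-seq counts of CD8+ T cells activated in vitro, 3 libraries in each of 8 groups. The unconjugated bile acids were lithocholic acid (LCA), its relatives labelled IsoLCA, IsoAlloLCA and DehydroLCA, and ursodeoxycholic acid (UDCA), each at 50 µM. The taurine conjugates of cholic acid (TCA) and chenodeoxycholic acid (TCDCA) were given at 100 µM, and the remaining group is labelled Control. Exposure lasted 24 h in the series' design text and is called overnight in the treatment protocol. Mouse strain, age and the oxygen level of the cultures are not given in the sources used here. The labels leave unsaid whether replicate libraries stem from different mice or cultures, so p-values measure a spread that may be technical.

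Cells sense oxygen through enzymes that use it to hydroxylate the transcription factor subunit HIF-1α. The hydroxylated protein is bound by the VHL ubiquitin ligase and destroyed, and when hydroxylation slows, HIF-1α accumulates, pairs with ARNT and binds short DNA motifs near its target genes. In T cells HIF-1 is also raised by antigen receptor and mTOR signals in ordinary oxygen, and it is best known there for driving glycolysis. The genes described here are known as targets with other tasks: oxygen sensing, collagen modification, mitochondrial turnover, lipid storage, chromatin and signalling to blood vessels.

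Promoters are shown for 6 of these genes, among them both members of the paralog pairs P4ha1 and P4ha2, and Egln1 and Egln3. Capitals mark the core of the HIF motif, searched as ACGTG and as GCGTG on both strands, so that a match on the opposite strand reads CACGT or CACGC. Each stretch ends at or before the transcription start, reads 5′ to 3′ on the gene's strand and comes from RefSeq on GRCm38.p6.
P4ha2, chr11:54100787-54100889, plus strand: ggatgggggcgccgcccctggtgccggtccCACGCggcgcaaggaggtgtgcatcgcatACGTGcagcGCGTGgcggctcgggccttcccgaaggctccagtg
P4ha1, chr10:59323103-59323295, plus strand: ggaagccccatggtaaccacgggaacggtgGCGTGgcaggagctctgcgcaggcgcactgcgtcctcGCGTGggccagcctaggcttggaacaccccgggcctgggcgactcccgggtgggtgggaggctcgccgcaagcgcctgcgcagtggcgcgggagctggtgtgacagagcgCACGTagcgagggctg
Egln3, chr12:54204069-54204124, minus strand: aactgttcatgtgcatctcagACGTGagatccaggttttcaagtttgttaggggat
Egln1, chr8:124949288-124949410, minus strand: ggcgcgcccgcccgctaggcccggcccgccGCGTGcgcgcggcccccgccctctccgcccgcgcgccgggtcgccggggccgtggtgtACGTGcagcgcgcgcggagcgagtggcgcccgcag
Bnip3, chr7:138909507-138909653, minus strand: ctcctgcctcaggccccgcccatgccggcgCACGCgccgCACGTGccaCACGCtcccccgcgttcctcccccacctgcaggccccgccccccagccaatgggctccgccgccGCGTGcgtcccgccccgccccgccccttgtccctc
Hilpda, chr6:29272485-29272625, plus strand: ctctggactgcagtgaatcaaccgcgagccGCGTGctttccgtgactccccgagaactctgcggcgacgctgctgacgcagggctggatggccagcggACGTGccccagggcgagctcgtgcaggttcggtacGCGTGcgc
In windows of 250 bases before to 50 bases after the start, 7 of the 9 genes with a promoter entry held ACGTG or GCGTG, and 7 held ACGTG. Ankrd37, whose stretch is not printed, was among the 7. Whether these matches bear on the changes below was not tested. Of all 32851 promoter windows of this length 43.8% held either core and 19.6% held ACGTG, and of the 15144 windows at the start of a counted transcript 49.5% and 20.8% did. Only Bnip3 held CACGTG, the palindrome in which ACGTG matches on both strands and which is also the E-box of other factors, found in 7.15% of all windows. No match to either core lay in the windows at the counted starts of Vegfa and Kdm3a, whose other promoter entries were not examined, and Ndrg1 had no entry. A match is a description of letters, and 9 genes chosen for being hypoxia targets are no test of it.

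Depth ran from 25998051 to 41024340.5 counts per library (median 32852325). The T cell genes Cd8a (557 to 774 CPM, counts scaled by library size, TMM factors included) and Cd3e (279 to 412 CPM) were abundant in every library, while Cd4 stayed at 0.281 to 1.16 CPM, though Foxp3 (7.74 to 11.1 CPM) and Zbtb7b (33 to 56.8 CPM) of the same CD4 T cell list were detected. The macrophage gene Adgre1 stayed at 0 to 0.0832 CPM, and S100a8 was at 0 in all. In such bulk samples fewer cells of a type and less RNA per cell cannot be told apart. The share of a library lying in exons was lowest on average with IsoAlloLCA (78.3% ± 2.78, against 82.6% ± 1.37 in control, SD, n = 3 each). Control replicate 2 had the highest level of all 10 genes among the control libraries, and the comparisons with control share those 3 libraries. Values below are CPM per library, and changes are edgeR log2 fold changes ± SE from a fit of all 24 libraries. "Rose" and "fell" are used where p, after Benjamini-Hochberg adjustment across the 13044 genes, was under 0.05.

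Most of these genes were lower in most bile acid groups, most deeply with LCA, TCDCA and UDCA. LCA lowered 9 of the 10 and raised Vegfa, where 18.8% of all tested genes fell and 17.7% rose. With TCDCA 9 fell and 0 rose, where 8.04% of all genes fell and 5.08% rose, and with UDCA 9 fell and 0 rose, where 10.7% fell and 9.18% rose. IsoLCA lowered 9 (6.12% of all genes fell and 3.73% rose), DehydroLCA 8 (3.41% and 2.41%) and TCA 2 (0.353% and 0.0843%), and 0 of the 10 rose with these acids. IsoAlloLCA lowered 2 and raised 2, where 27.8% of all tested genes fell and 30.6% rose, so its shares among the 10 were no larger than among all genes. The median log2 fold change of the 10 was -0.86 with LCA, -0.67 with TCDCA, -0.52 with UDCA, -0.42 with IsoLCA, -0.36 with DehydroLCA, -0.31 with TCA and 0.08 with IsoAlloLCA. The median over all tested genes lay between 0.002 and 0.026 in these comparisons. Genes of the 10 called in either direction were thus 10 with LCA (36.5% of all genes were called), 9 with TCDCA (13.1%), 9 with UDCA (19.9%), 9 with IsoLCA (9.84%), 8 with DehydroLCA (5.83%), 2 with TCA (0.437%) and 4 with IsoAlloLCA (58.4%). Without control replicate 2 they were 10 with LCA, 8 with TCDCA, 8 with UDCA, 6 with IsoLCA, 4 with DehydroLCA, 1 with TCA and 4 with IsoAlloLCA. The count over all tested genes also fell in that refit, to 3810, 898, 1692, 815, 400, 8 and 7111 genes in the same order of acids, against 4765, 1712, 2599, 1284, 760, 57 and 7618 with all libraries. A call depends on the adjustment over all genes, so counts of calls do not rank acids by size of change. Log2 fold changes with TCA and DehydroLCA were close for P4ha2 (-0.56 and -0.56), Ndrg1 (-0.42 and -0.43) and Bnip3 (-0.30 and -0.29). They lay further apart for Ankrd37 (-0.32 and -0.45), Kdm3a (-0.06 and -0.19) and Vegfa (-0.20 and 0.01).

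**Figure D1:**
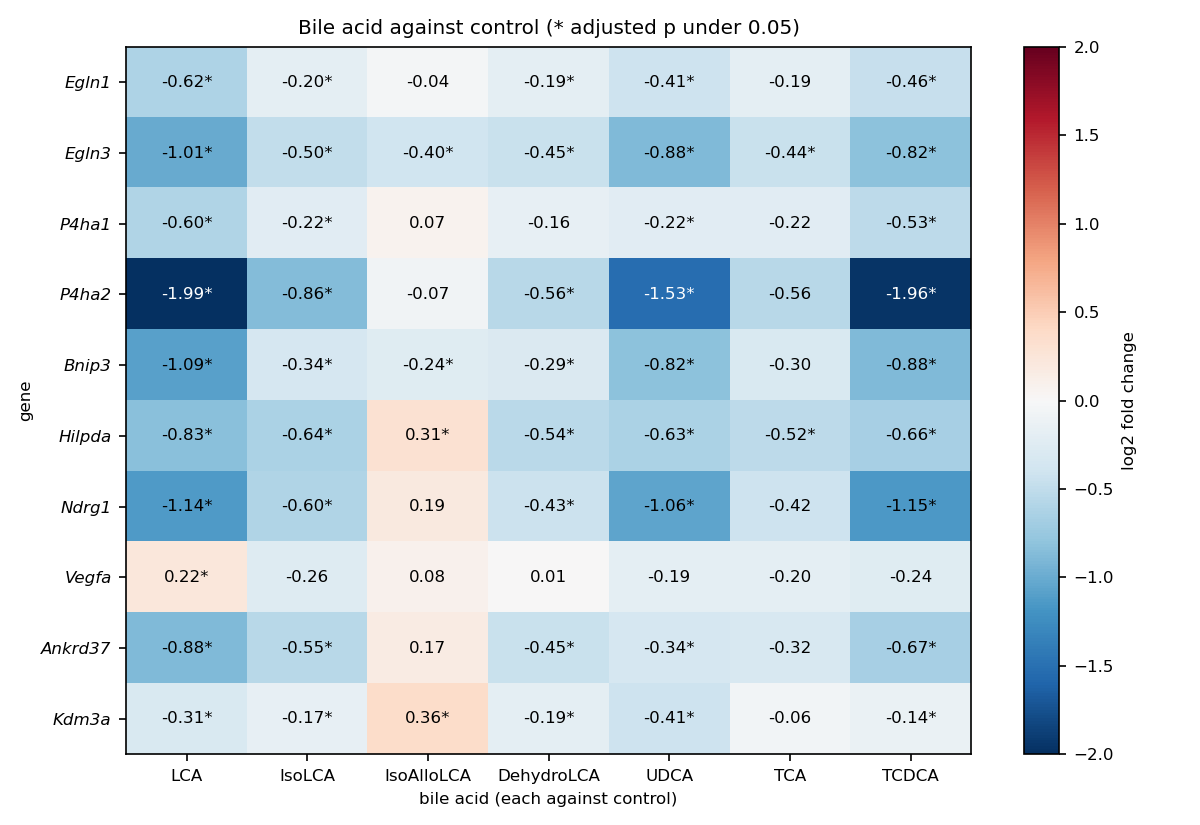
Log2 fold change of each of the 10 genes (rows) for each bile acid against control (columns), as colour and number, with an asterisk where the adjusted p was under 0.05. P4ha2 shows the deepest falls, -1.99 with LCA and -1.96 with TCDCA, and the IsoAlloLCA column mixes blue and red.

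The oxygen sensors Egln1 and Egln3 encode prolyl hydroxylases that mark HIF-1α for destruction, and both are known to be induced by HIF themselves. Egln3, on mm10 chromosome 12 (54178981 to 54203874, minus strand), had 117, 104 and 104 CPM with LCA, against 190, 233 and 231 CPM in control. The groups did not overlap, and Egln3 fell by 50.3% (-1.01 ± 0.09, edgeR adjusted p = 4.77e-09). Among the 10 genes it was the only member called lower with every acid, though with TCA the call (-0.44 ± 0.09, adjusted p = 0.0236) was lost without control replicate 2 (-0.39, adjusted p = 0.21) or control replicate 3 (-0.4, 0.121), without TCA replicate 1 (-0.42, 0.117) or TCA replicate 3 (-0.36, 0.226), and in a fit of only the 2 groups (0.092). Its mean was 108 ± 7.39 CPM with LCA, 119 ± 12.7 with UDCA, 124 ± 13.3 with TCDCA, 154 ± 14.1 with IsoLCA, 159 ± 6.74 with DehydroLCA, 161 ± 18.9 with TCA and 165 ± 11.9 with IsoAlloLCA, against 218 ± 24.4 CPM in control (SD, n = 3 each). LCA, UDCA and TCDCA overlapped as neighbours in this order, as did the next 4 acids, and gaps between library ranges separated TCDCA from IsoLCA and IsoAlloLCA from control.

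Egln1 (chromosome 8, 124908587 to 124949254, minus strand), the main sensor in most cells, moved less. It had 123, 117 and 122 CPM with LCA, against 179, 194 and 185 CPM in control, a fall of -0.62 ± 0.05 (adjusted p = 1.26e-09). It also fell with TCDCA (-0.46 ± 0.05) and UDCA (-0.41 ± 0.05), while values with TCA (-0.19 ± 0.05, adjusted p = 0.124) and IsoAlloLCA (-0.04 ± 0.05, adjusted p = 0.533) did not pass. The small fall with IsoLCA (-0.20 ± 0.05, adjusted p = 0.0112) was lost without IsoLCA replicate 3 (0.0504) or control replicate 2 (0.0842). That with DehydroLCA (-0.19 ± 0.05, 0.0242) was lost without DehydroLCA replicate 1 (0.14), DehydroLCA replicate 3 (0.0897) or control replicate 2 (0.148). Levels of both sensors can be set side by side per kilobase of transcript: in control Egln3 stood at 81.6 ± 9.12 and Egln1 at 52.8 ± 2.15 CPM per kilobase. The log2 ratio of Egln3 to Egln1 was 0.33, 0.23 and 0.16 in LCA libraries, 0.04, 0.06 and 0.35 in UDCA libraries and 0.3, 0.21 and 0.28 in IsoAlloLCA libraries, against 0.48, 0.66 and 0.72 in control. In all 7 acid groups every library lay below every control library. Each of these 7 comparisons gave p = 0.1 in an exact two-sided permutation test (n = 3 against 3), the smallest p this design allows, and 0.1 after Benjamini-Hochberg adjustment over the 7. The 7 share their control libraries, so they are not separate pieces of evidence.

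The collagen prolyl 4-hydroxylase subunits P4ha1 and P4ha2 are alternative catalytic subunits of an enzyme of the endoplasmic reticulum. P4ha2 (chromosome 11, 54100924 to 54131667, plus strand) had the largest falls of the 10 genes. It had 4.9, 4.32 and 5.08 CPM with LCA, 4.93, 4.41 and 5.22 CPM with TCDCA and 7.36, 5.34 and 7.03 CPM with UDCA, against 16.3, 23.4 and 17 CPM in control. All 9 of these acid libraries lay far below the lowest control library, and P4ha2 fell by 74.7% with LCA (-1.99 ± 0.19, adjusted p = 8.37e-09), by 74.3% with TCDCA (-1.96 ± 0.19) and by 65.3% with UDCA (-1.53 ± 0.18). It was intermediate with IsoLCA, at 10.3, 9.56 and 11.4 CPM (-0.86 ± 0.17, adjusted p = 0.00112), and with DehydroLCA, at 12.5, 13.1 and 12.8 CPM (-0.56 ± 0.17, adjusted p = 0.046). The DehydroLCA call was lost without any 1 of the DehydroLCA libraries (adjusted p = 0.147, 0.101 and 0.123) without control replicate 2 (-0.38, 0.304) and with DESeq2 (0.0917). With IsoAlloLCA it had 17, 19.1 and 18 CPM, inside the control range, and the value did not pass (-0.07 ± 0.16, adjusted p = 0.733).

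The TCA libraries spread more widely in P4ha2 than those of any other group, at 13.1, 17.8 and 7.72 CPM, a coefficient of variation of 39.1%. The value against control did not pass (-0.56 ± 0.17, adjusted p = 0.188), and it was -0.29 without TCA replicate 3 and -0.86 (adjusted p = 0.0081) without TCA replicate 2. TCA replicate 3 was the lowest TCA library for 7 of the 10 genes and TCA replicate 2 the highest for 8. Such ranks were not particular to TCA: IsoLCA replicate 2 was lowest for 8 and TCDCA replicate 3 highest for 8. The coefficient of variation with TCA was 22.6% for Ndrg1 but 2.49% for Hilpda and 3.06% for Kdm3a. Its median over the 10 genes was 10.8%, against 3.61% (DehydroLCA) to 9.09% (IsoLCA) in the other groups.

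P4ha1 (chromosome 10, 59323296 to 59373304, plus strand) was the more abundant subunit, at 36.5 ± 2.03 CPM per kilobase in control against 8.38 ± 1.73 for P4ha2. It had 101, 94 and 95.9 CPM with LCA, against 138, 154 and 149 CPM in control (-0.60 ± 0.05, adjusted p = 3.32e-09). It fell with TCDCA by about as much (-0.53 ± 0.05) and less with UDCA (-0.22 ± 0.05). With IsoLCA the fall (-0.22 ± 0.05, adjusted p = 0.00679) was lost without control replicate 2 (0.0606). The log2 ratio of P4ha2 to P4ha1 per kilobase was -3.53, -3.61 and -3.41 in LCA libraries, -3.47, -3.67 and -3.53 in TCDCA libraries and -3.31, -3.68 and -3.34 in UDCA libraries, against -2.24, -1.88 and -2.3 in control. P4ha2 thus stood at 8.73% of the P4ha1 level with LCA, 8.49% with TCDCA and 9.22% with UDCA, against 22.7% in control. The ratio also lay below control in every library of IsoLCA (mean -2.77 ± 0.13) and DehydroLCA (-2.52 ± 0.07), and it overlapped control with TCA (-2.54 ± 0.5) and IsoAlloLCA (-2.27 ± 0.16). For each of the 5 acids without overlap the exact two-sided permutation test gave p = 0.1, the smallest p possible with 3 against 3, and 0.14 after adjustment over 7 comparisons, so none reached 0.05.

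**Figure D2:**
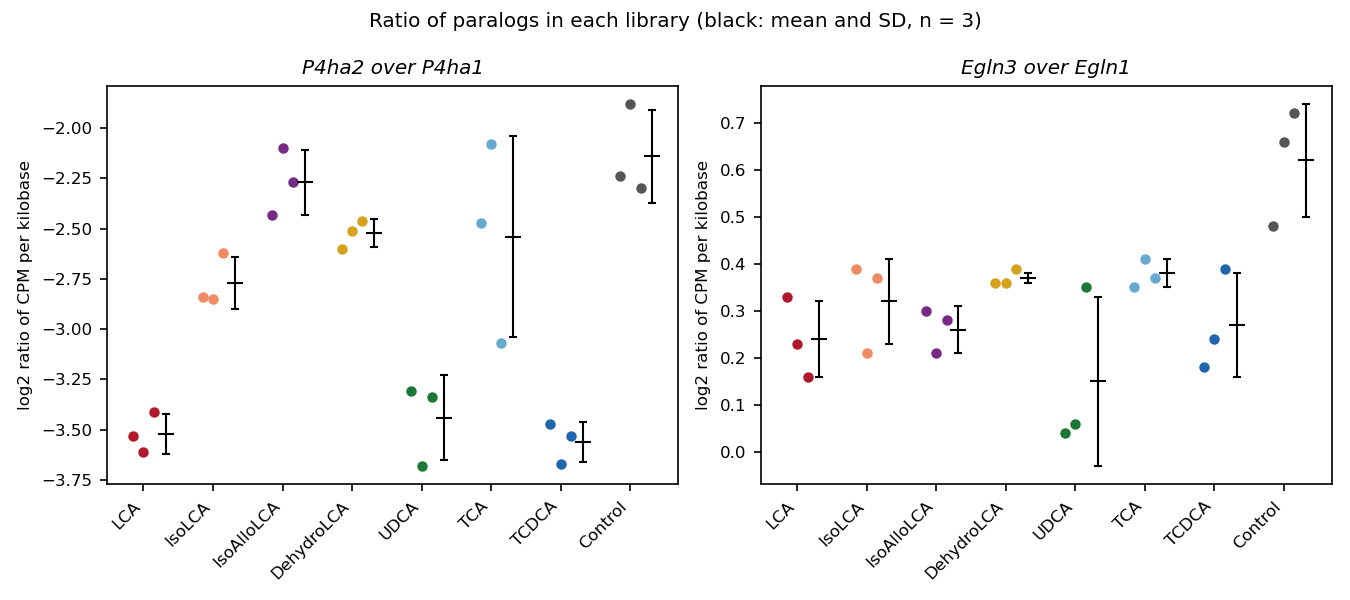
Log2 ratio of CPM per kilobase for P4ha2 over P4ha1 and for Egln3 over Egln1 in each of the 24 libraries (points), with mean and SD in black (n = 3). P4ha2 over P4ha1 averages -3.52 with LCA and -2.14 in control, and Egln3 over Egln1 is highest in the control libraries.

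Bnip3 encodes a receptor on the mitochondrial outer membrane that directs mitochondria to autophagy, and Hilpda a lipid droplet protein that restrains lipolysis. Bnip3 (chromosome 7, 138890836 to 138909506, minus strand) was the most abundant of the 10 per length in control, at 146 ± 10.3 CPM per kilobase. It had 131, 109 and 120 CPM with LCA, against 237, 273 and 257 CPM in control, and fell by 53.1% (-1.09 ± 0.09, adjusted p = 8.76e-10). UDCA (-0.82 ± 0.09) and TCDCA (-0.88 ± 0.09) gave falls of similar size. Smaller falls with IsoLCA (-0.34 ± 0.09, adjusted p = 0.0104), DehydroLCA (-0.29 ± 0.09, 0.0497) and IsoAlloLCA (-0.24 ± 0.09, 0.0213) were each lost without control replicate 2 (adjusted p = 0.0755, 0.218 and 0.0988). The IsoLCA call was also lost without IsoLCA replicate 2 (0.0652), the IsoAlloLCA call without IsoAlloLCA replicate 2 (0.105) or replicate 3 (0.0528), and the DehydroLCA call without control replicate 3 (0.0958) or any 1 of the DehydroLCA libraries (0.174, 0.0898 and 0.132) and with DESeq2 (0.0728). The TCA value (-0.30 ± 0.09, adjusted p = 0.178) did not pass, though no TCA library reached the control range of Bnip3. An annotated antisense RNA overlaps 504 bases of Bnip3 exons, and reads of both cannot be told apart where the counting used no strand, which the sources used here do not state.

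Hilpda (chromosome 6, 29272626 to 29275449, plus strand) fell with 6 acids and rose with the seventh. It had 12, 10.6 and 11.9 CPM with LCA, 12.8, 13.1 and 13.9 CPM with UDCA, and 14.5, 13.9 and 14.5 CPM with TCA, against 18.5, 22.6 and 20.6 CPM in control. No library of these acids reached the control range. The log2 fold change was -0.83 ± 0.07 with LCA, -0.66 ± 0.07 with TCDCA, -0.64 ± 0.07 with IsoLCA, -0.63 ± 0.07 with UDCA, -0.54 ± 0.07 with DehydroLCA and -0.52 ± 0.07 with TCA (adjusted p from 2.10e-09 with LCA to 4.63e-04 with TCA). None of these calls was lost when any library was left out. With IsoAlloLCA it had 25.8, 26.5 and 23.8 CPM, all above control, and rose by 23.7% (0.31 ± 0.07, adjusted p = 4.20e-04).

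Kdm3a encodes a demethylase of lysine 9 on histone H3 that, like the prolyl hydroxylases, needs oxygen. Group means of Kdm3a ran from 169 ± 11.7 CPM with UDCA to 288 ± 9.25 CPM with IsoAlloLCA (SD, n = 3 each). Its coefficient of variation within groups was 0.846% (LCA) to 6.95% (UDCA). Kdm3a (chromosome 6, 71588970 to 71632686, minus strand) had 279, 298 and 287 CPM with IsoAlloLCA, against 226, 228 and 219 CPM in control, and rose by 28.4% (0.36 ± 0.04, adjusted p = 2.67e-08). It had 167, 158 and 181 CPM with UDCA, its lowest group (-0.41 ± 0.04, adjusted p = 7.62e-08), and 182, 183 and 180 CPM with LCA (-0.31 ± 0.04). Falls were smaller with DehydroLCA (-0.19 ± 0.04), IsoLCA (-0.17 ± 0.04) and TCDCA (-0.14 ± 0.04, adjusted p = 0.0162, lost without control replicate 2 at 0.0791 or TCDCA replicate 2 at 0.0921). With TCA the value was -0.06 ± 0.04 (adjusted p = 0.718).

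Ndrg1 encodes a cytosolic stress-response protein, and Ankrd37 an ankyrin repeat protein whose function is little known. Ndrg1 (chromosome 15, 66929318 to 66969641, minus strand) had 46.2, 46.4 and 44.9 CPM with LCA, 46.7, 44.4 and 45.4 CPM with TCDCA and 53.8, 44.7 and 47.3 CPM with UDCA, against 94.5, 117 and 92.9 CPM in control. These 3 acids overlapped each other and were far from control, with falls of -1.14 ± 0.11, -1.15 ± 0.11 and -1.06 ± 0.11. With IsoAlloLCA it had 114, 121 and 110 CPM and the value did not pass (0.19 ± 0.10, adjusted p = 0.125), though without control replicate 2 it was called higher (0.30, adjusted p = 0.0248). Its fall with DehydroLCA (-0.43 ± 0.11, adjusted p = 0.0127) was lost without DehydroLCA replicate 1 (0.0731), DehydroLCA replicate 3 (0.0841) or control replicate 2 (0.128). The TCA value of Ndrg1 (-0.42 ± 0.11, adjusted p = 0.0781) did not pass, though no TCA library reached the control range. It was called lower under some alternatives, such as the replicate block (adjusted p = 0.0253). Ankrd37 (chromosome 8, 45996908 to 45999850, minus strand) had 4.96, 5.41 and 6.25 CPM with LCA, against 10.3, 10.6 and 9.71 CPM in control (-0.88 ± 0.10, adjusted p = 1.18e-07). It also fell with TCDCA (-0.67 ± 0.10), IsoLCA (-0.55 ± 0.09) and DehydroLCA (-0.45 ± 0.09). The fall with UDCA was smaller than these (-0.34 ± 0.09, adjusted p = 0.0125) and was lost without control replicate 2 (0.056). The IsoAlloLCA libraries, at 11.4, 11.9 and 10.9 CPM of Ankrd37, lay above control without passing (0.17 ± 0.09, adjusted p = 0.115). Annotated genes on the opposite strand overlap exons of both, 419 and 137 bases of Ndrg1 and 349 and 57 bases of Ankrd37, so part of their counts could belong to those genes. For Ankrd37 the partner in the longer overlap, Lrp2bp, had at most 15.5 counts in a library, against at least 193 for Ankrd37, while Ufsp2, in the shorter overlap, had 897.5 to 1459.5.

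Vegfa, the secreted growth factor that guides vessel growth, did not follow the rest. Vegfa (chromosome 17, 46016993 to 46032377, minus strand) had 46.8, 51.3 and 48 CPM with LCA, against 39.2, 45.2 and 41.3 CPM in control. The groups did not overlap, and it rose slightly (0.22 ± 0.08, adjusted p = 0.0439). The call was lost without LCA replicate 2 (0.17, adjusted p = 0.177), LCA replicate 3 (0.22, 0.0802), control replicate 1 (0.17, 0.173) or control replicate 3 (0.20, 0.116), with DESeq2 (0.21, 0.0502), and with the exon share as a covariate (0.14, 0.141). With the other acids it ranged from -0.26 ± 0.09 with IsoLCA (adjusted p = 0.0555) to 0.08 ± 0.08 with IsoAlloLCA (0.425), and none passed, though lower values with IsoLCA, UDCA and TCDCA were called under some alternatives (adjusted p from 0.00653 to 0.049). In the direct comparison it was lower with IsoLCA, at 34, 31.1 and 39.7 CPM, than with LCA (-0.48 ± 0.08, adjusted p = 1.53e-04).

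**Figure D3:**
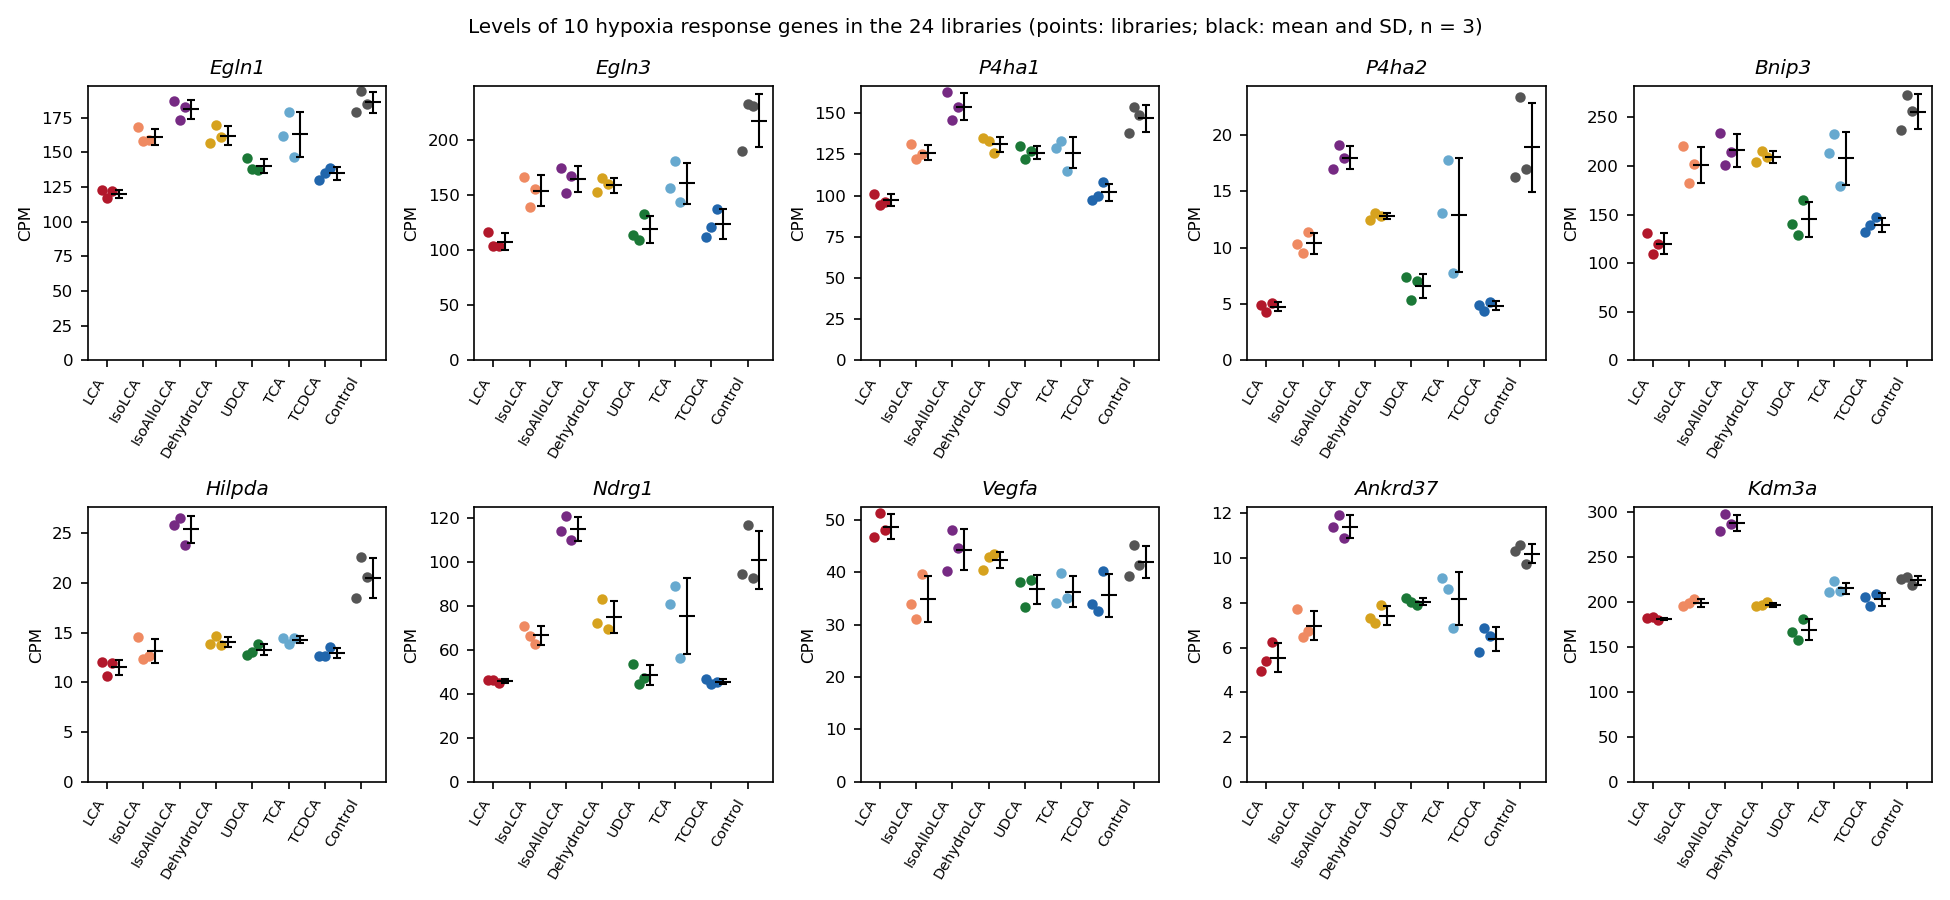
CPM of each of the 10 genes in the 24 libraries (points; 8 groups on the horizontal axis, control at the right) with mean and SD in black (n = 3). For Egln3, P4ha2, Bnip3 and Ndrg1 the LCA, UDCA and TCDCA points lie lowest, Hilpda and Kdm3a are highest with IsoAlloLCA, and Vegfa is highest with LCA.

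LCA had the lowest group mean for 7 of the 10 genes (Egln1, Egln3, P4ha1, P4ha2, Bnip3, Hilpda and Ankrd37). IsoAlloLCA had the highest mean for 5 (P4ha1, Hilpda, Ndrg1, Ankrd37 and Kdm3a), control for 4 (Egln1, Egln3, P4ha2 and Bnip3) and LCA for Vegfa. Some neighbours in these orders did not differ beyond their spread: the libraries of LCA and TCDCA overlapped for P4ha1, P4ha2, Ndrg1 and Ankrd37, and those of IsoAlloLCA and control for Egln1, P4ha1, P4ha2 and Ndrg1.

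With IsoAlloLCA the genes of the group parted. Egln3 fell (-0.40 ± 0.09, adjusted p = 4.93e-04) and Bnip3 fell, Hilpda and Kdm3a rose, and 6 did not pass. The exon share differed most from control in this group. With the exon share as a covariate, an alternative chosen after seeing the data, Egln3 (-0.30), Hilpda (0.37) and Kdm3a (0.27) kept their calls, Bnip3 lost its own (-0.11, adjusted p = 0.377) and P4ha1 was called higher (0.16, adjusted p = 0.0196).

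Acids that differ by a named change in structure were then compared at the same dose, 5 pairs in all, with p-values adjusted over all tested genes of a pair. IsoLCA, the epimer of LCA with its hydroxyl group turned the other way, left these genes higher than LCA did: 9 of 10 were higher with IsoLCA and Vegfa was lower, where 15.8% of all tested genes were higher, 14.6% lower and 30.3% called in all. P4ha2 had 10.3, 9.56 and 11.4 CPM with IsoLCA, against 4.9, 4.32 and 5.08 CPM with LCA, a difference of 1.13 (95% interval 0.73 to 1.53, adjusted p = 1.24e-04). Bnip3 differed by 0.75 (0.56 to 0.93) and Egln1 by 0.42 (0.31 to 0.53). The smallest differences were in Hilpda (0.20, adjusted p = 0.0467) and Kdm3a (0.14, 0.0113). The Hilpda call was lost without LCA replicate 2 (0.15, adjusted p = 0.212), LCA replicate 3 (0.22, 0.0609) or IsoLCA replicate 1 (0.12, 0.296), and under 5 other alternatives (0.0522 to 0.157). The Ankrd37 call (0.34, 0.0134) was lost without LCA replicate 1 (0.26, 0.076) or IsoLCA replicate 1 (0.26, 0.093).

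DehydroLCA, which carries a ketone where LCA carries the hydroxyl, also left the genes higher than LCA did, 9 of 10 and 0 lower, where 10.3% of all tested genes were higher, 7.49% lower and 17.8% called in all. P4ha2 differed by 1.43 (95% interval 1.03 to 1.82, adjusted p = 1.34e-05), Bnip3 by 0.80 (0.62 to 0.99) and Ndrg1 by 0.71 (0.48 to 0.94). Vegfa did not pass (-0.20, interval -0.38 to -0.03, adjusted p = 0.0919). The Kdm3a call (0.12, adjusted p = 0.0343) was lost without any 1 of the 6 libraries (adjusted p from 0.0659 to 0.103) and the Hilpda call (0.30, 0.00763) without LCA replicate 2 (0.24, 0.0674).

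UDCA has an added hydroxyl group and stayed closer to LCA. Here 5 of 10 were higher with UDCA and Vegfa was lower (-0.41 ± 0.08), where 14.8% of all tested genes were higher, 12% lower and 26.9% called in all. Ankrd37 had 8.21, 8.03 and 7.89 CPM with UDCA, against 4.96, 5.41 and 6.25 CPM with LCA (0.54, 95% interval 0.33 to 0.75, adjusted p = 2.35e-04), and P4ha1 differed by 0.37 (0.27 to 0.48). Differences in Egln3 (0.13, interval -0.06 to 0.32), Ndrg1 (0.08, -0.15 to 0.32), P4ha2 (0.46, 0.02 to 0.90, adjusted p = 0.114) and Kdm3a (-0.10, -0.19 to -0.02, adjusted p = 0.0575) did not pass. These intervals leave room for differences of up to 0.32 for Egln3 and 0.90 for P4ha2. The Hilpda call (0.20, adjusted p = 0.05 after rounding up) was lost without any 1 of the 6 libraries (adjusted p from 0.053 to 0.226). The Bnip3 call (0.27, 0.0286) was lost without LCA replicate 2 (0.20, 0.157), LCA replicate 3 (0.26, 0.0735) or UDCA replicate 3 (0.16, 0.203), and the Bnip3 libraries of these acids overlapped.

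IsoAlloLCA differs from IsoLCA in the way its first rings are joined. Of the 10 genes 8 were higher with IsoAlloLCA and 0 lower, where 31.7% of all tested genes were higher, 28.1% lower and 59.8% called in all. Hilpda had 25.8, 26.5 and 23.8 CPM with IsoAlloLCA, against 14.6, 12.4 and 12.7 CPM with IsoLCA, a difference of 0.94 (95% interval 0.80 to 1.09, adjusted p = 3.49e-11). Ndrg1 differed by 0.79 (0.57 to 1.01), P4ha2 by 0.79 (0.43 to 1.14) and Ankrd37 by 0.71 (0.52 to 0.91). Egln3 (0.10, interval -0.09 to 0.29) and Bnip3 (0.10, -0.08 to 0.28) did not pass. These 8 calls held when any 1 library was left out, and the Vegfa call was lost with the exon share as a covariate (0.14, adjusted p = 0.29, against 0.34 without it).

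TCA carries a hydroxyl group that TCDCA lacks. Of the 10 genes 7 were higher with TCA and 0 lower, where 2.65% of all tested genes were higher, 0.958% lower and 3.61% called in all. P4ha2 had 13.1, 17.8 and 7.72 CPM with TCA, against 4.93, 4.41 and 5.22 CPM with TCDCA (1.41, 95% interval 1.00 to 1.81, adjusted p = 1.31e-04). This interval rests on the spread over all groups, and may be too narrow for the widely spread TCA libraries (coefficient of variation 39.1%). The P4ha2 difference ran from 1.1 to 1.67 when libraries were left out in turn. Ndrg1 differed by 0.73 (0.50 to 0.96), Bnip3 by 0.58 (0.40 to 0.76) and Egln1 by 0.27 (0.16 to 0.38). Hilpda (0.14, -0.02 to 0.29), Kdm3a (0.08, 0.00 to 0.17) and Vegfa (0.03, -0.15 to 0.21) did not pass. The Egln3 call (0.38, adjusted p = 0.0175) was lost without TCA replicate 1 (0.0546), TCA replicate 2 (0.161), TCDCA replicate 1 (0.127) or TCDCA replicate 2 (0.0866), and the Ankrd37 call (0.36, 0.0449) without TCA replicate 1 (0.282), TCA replicate 2 (0.194) or any 1 of the TCDCA libraries (0.21, 0.0661 and 0.0972).

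**Figure D4:**
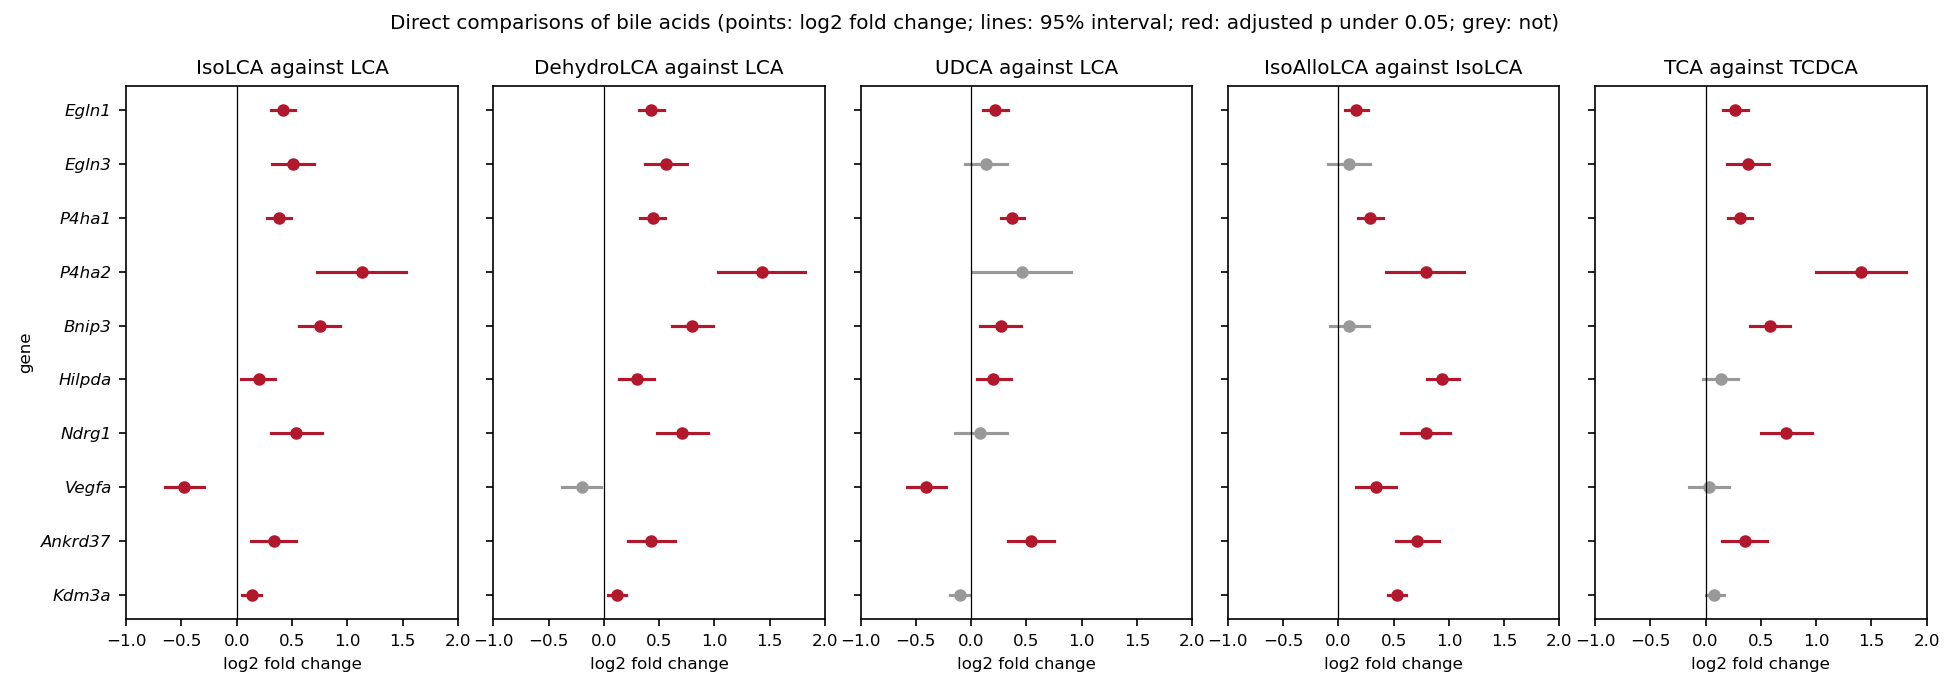
Log2 fold change (points) and 95% interval (lines) of each of the 10 genes in the 5 direct comparisons of bile acids given at the same dose, red where the adjusted p was under 0.05 and grey where it was not. P4ha2 shows the largest difference in 3 panels, 1.13 for IsoLCA against LCA, 1.43 for DehydroLCA against LCA and 1.41 for TCA against TCDCA, and Vegfa lies left of 0 in the 3 comparisons with LCA.

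The messages of the HIF pathway itself are set beside the 10 here. Of 19 subunits and regulators, all tested, 6 fell and 3 rose with LCA, 5 and 1 with UDCA, 4 and 0 with TCDCA, 3 and 0 with IsoLCA, 1 and 0 with DehydroLCA, 0 and 0 with TCA, and 7 and 6 with IsoAlloLCA. As shares these were 31.6% lower and 15.8% higher with LCA, where 18.8% and 17.7% of all tested genes were, and 36.8% and 31.6% with IsoAlloLCA, where 27.8% and 30.6% of all were. With TCDCA 21.1% were lower, where 8.04% of all were, and with UDCA 26.3%, where 10.7% of all were. With IsoLCA 15.8% were lower, where 6.12% of all were, and with DehydroLCA 5.26%, where 3.41% of all were. With TCA 0 of the 19 were called, where 0.437% of all were. Hif1a, the regulated subunit, averaged 384 ± 18.6 CPM with IsoLCA, 417 ± 10.2 with UDCA, 426 ± 13.9 with TCDCA and 448 ± 14.2 with DehydroLCA, against 506 ± 17.3 CPM in control (SD, n = 3 each), and fell by 0.40, 0.28, 0.25 and 0.18 on the log2 scale. With LCA, which had the lowest mean for 7 of the 10 genes, Hif1a had 487 ± 14.3 CPM and did not pass (-0.06 ± 0.04, adjusted p = 0.314). It was lower with IsoLCA than with LCA (-0.34 ± 0.04, adjusted p = 2.27e-06) and lower with UDCA than with LCA (-0.22 ± 0.04, 3.41e-04). Levels of HIF-1α protein, through which the pathway is mainly set, are not part of these data.

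The partner Arnt did not pass in any of the 7 comparisons with control (-0.05 to 0.05), nor did Egln2, the remaining sensor (-0.05 to 0.12). Epas1, the gene of HIF-2α, was scarce and fell with LCA (2.09 ± 0.182 CPM, against 3.42 ± 0.35 in control; -0.70 ± 0.17, adjusted p = 0.00281), TCDCA (-0.71 ± 0.18), IsoLCA (-0.55 ± 0.17) and UDCA (-0.51 ± 0.18). With IsoAlloLCA Epas1 rose (5.44 ± 0.801 CPM, 0.68 ± 0.16, adjusted p = 6.44e-04). Vhl, the substrate receptor of the ligase, rose with IsoAlloLCA (0.28 ± 0.06) and fell with UDCA (-0.24 ± 0.06) and LCA (-0.15 ± 0.06). Hif1an, which encodes the asparaginyl hydroxylase that blocks HIF coactivator binding, rose with IsoAlloLCA (0.18 ± 0.04, adjusted p = 2.67e-04) and did not pass with the others. Siah2, a ubiquitin ligase gene, fell most with IsoAlloLCA (-0.34 ± 0.06), and with UDCA Hif3a fell most (-0.74 ± 0.20) and the coactivator gene Crebbp rose (0.19 ± 0.06). The largest rises in the list were in the scarce Arnt2, with LCA (1.41) and with IsoAlloLCA (0.75 CPM, against 0.212 in control; 1.87 ± 0.38).

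Other hypoxia-induced genes outside glycolysis were mostly lower where called, except with IsoAlloLCA. Of 44 listed 38 were tested, and with TCDCA 25 fell and 0 rose, with UDCA 22 and 1, with LCA 20 and 2, with IsoLCA 17 and 0, with DehydroLCA 11 and 0, with TCA 6 and 0, and with IsoAlloLCA 12 and 13. Their median log2 fold changes were -0.36, -0.32, -0.29, -0.19, -0.16, -0.19 and 0.03 in that order of acids. Shares called lower were 65.8% with TCDCA, 57.9% with UDCA and 52.6% with LCA, where 8.04%, 10.7% and 18.8% of all tested genes were, while the 31.6% lower and 34.2% higher with IsoAlloLCA lay near the 27.8% and 30.6% of all. Those called lower were 44.7% with IsoLCA, 28.9% with DehydroLCA and 15.8% with TCA, where 6.12%, 3.41% and 0.353% of all tested genes were. The largest falls with TCDCA and with LCA were in scarce genes, Nos2 with TCDCA (-2.10 ± 0.59) and Tmem45a with LCA (0.69 CPM, against 2.27 in control; -1.71 ± 0.27). With TCA the largest fall was in Rragd, a GTPase gene of the mTORC1 pathway (-0.63 ± 0.14). Hmox1, the haem-degrading enzyme, rose with LCA (0.53 ± 0.11) and Plod1, a collagen lysyl hydroxylase, with UDCA (0.38 ± 0.12). With IsoAlloLCA Pdgfb, a growth factor gene, rose most (5.75 CPM, against 1.81 in control; 1.67 ± 0.15, adjusted p = 5.24e-10) and Car12, a carbonic anhydrase, fell most (17.4 CPM, against 28.3; -0.70 ± 0.09).

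Glycolysis genes are set beside the 10 here. Of 22 tested, 21 fell with LCA, 21 with UDCA, 20 with TCDCA, 16 with IsoLCA, 12 with DehydroLCA and 4 with TCA. With these acids 0 rose. As shares, 95.5%, 95.5%, 90.9%, 72.7%, 54.5% and 18.2% fell, in the same order of acids. Of all tested genes 18.8%, 10.7%, 8.04%, 6.12%, 3.41% and 0.353% fell in these comparisons. The largest falls were in the aldolase gene Aldoc with LCA (-2.05 ± 0.12), UDCA (-1.49 ± 0.12) and DehydroLCA (-0.69 ± 0.11), and in the glucose transporter gene Slc2a3 with TCDCA (-1.09 ± 0.09), IsoLCA (-0.77 ± 0.09) and TCA (-0.52 ± 0.09). With IsoAlloLCA 16 of the 22 glycolysis genes fell (72.7%) and 2 rose (9.09%), with a median of -0.24. Of the 10 genes 2 fell and 2 rose, with a median of 0.08. Among all tested genes 27.8% fell and 30.6% rose. The phosphofructokinase gene Pfkp fell most in that comparison (391 CPM, against 601 in control; -0.62 ± 0.05) and the scarce enolase gene Eno2 rose (0.70 ± 0.25). The difference between the lists was not tested. In IsoAlloLCA against IsoLCA 5 glycolysis genes were higher and 5 lower (22.7% each), while of the 10 genes 8 were higher and 0 lower. Among all tested genes 31.7% were higher and 28.1% lower, so neither glycolysis share was above that of all genes. In the other direct comparisons 17 glycolysis genes were higher for IsoLCA against LCA and 19 for DehydroLCA against LCA. They numbered 12 for UDCA against LCA and 16 for TCA against TCDCA, and 0 were lower in any of these comparisons. As shares, 77.3%, 86.4%, 54.5% and 72.7% were higher. Among all tested genes 15.8%, 10.3%, 14.8% and 2.65% were higher, in the same order, and 14.6%, 7.49%, 12% and 0.958% lower. The 38 other hypoxia-induced genes had 23 higher and 2 lower for IsoAlloLCA against IsoLCA (60.5% and 5.26%). They had 16 higher and 6 lower for IsoLCA against LCA (42.1% and 15.8%), and 19 and 3 for DehydroLCA against LCA (50% and 7.89%). For UDCA against LCA they had 13 and 6 (34.2% and 15.8%), and for TCA against TCDCA 14 (36.8%) and 0. The 15.8% lower for IsoLCA and for UDCA against LCA lay near the 14.6% and 12% of all tested genes.

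The 6 genes whose pattern over the 8 groups lay nearest to the median of the 10 were looked for among 8538 other genes of at least 10 CPM. Likeness was the root mean square difference of group mean log2 CPM, each gene centred on its own mean over the 8 groups. The nearest was Ndrg2 (0.0403 on the log2 scale), followed by Fam162a (0.0551), Slc37a4 (0.0631), Ero1l (0.0762), Gbe1 (0.0775) and Parp16 (0.0781). Ndrg2 belongs to the same family as Ndrg1, and Fam162a and Ero1l were also among the listed hypoxia-induced genes. The members themselves lay 0.0947 (Egln1) to 0.46 (P4ha2) from their own median, with Vegfa at 0.312. P4ha2 had the same order of groups in larger steps, from -1.03 with LCA to 0.93 in control on the centred scale. Vegfa ran from -0.19 with IsoLCA to 0.29 with LCA.

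**Figure D5:**
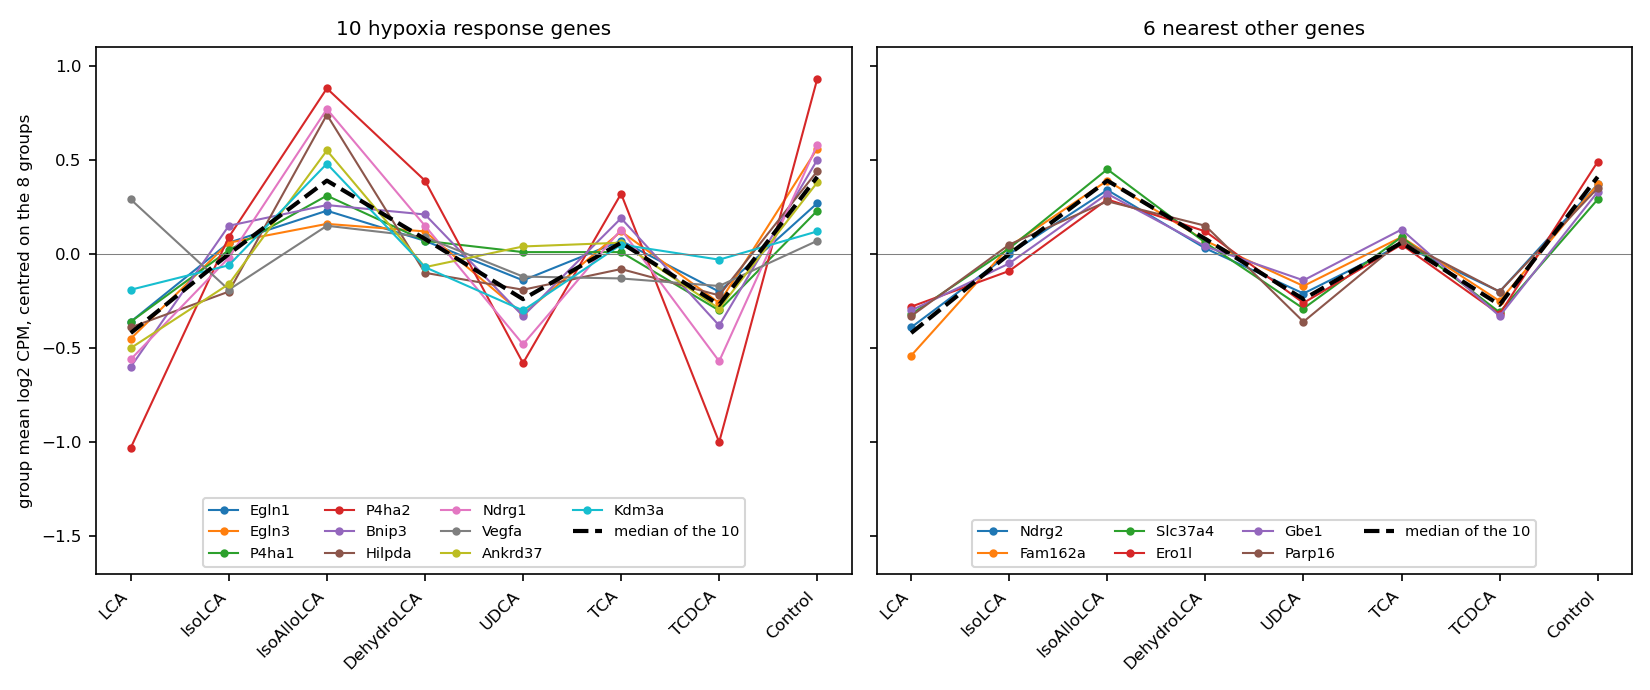
Group mean log2 CPM, centred on the mean of the 8 groups, for the 10 genes (left) and the 6 nearest other genes (right), with the median of the 10 as a dashed line. The median runs from -0.42 with LCA to 0.41 in control, with 0.39 for IsoAlloLCA, and only Vegfa of the 10 is above 0 with LCA.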

How the data were processed

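RNA-seq of 24 libraries was examined. The authors deposited expected counts per gene, in steps of 0.5 (29.43% not whole), made with HOMER over exons on mm10 without normalization, per the file headers; STAR and DESeq2 are named without versions per the submitters' processing notes. Values were rounded, with values ending in 0.5 going up, before testing; the planned count test was kept for these expected counts. CPM were computed from the deposited counts with TMM-scaled library totals (factors 0.971 to 1.05), and CPM per kilobase used the transcript length in the table.

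Counts were tested in R 4.3.3 with edgeR 4.0.16 (glmQLFit, glmQLFTest), 1 coefficient per group over all 24 libraries, filterByExpr (13044 genes kept) and Benjamini-Hochberg adjustment over all of them. Residual degrees of freedom were 16, and the common biological coefficient of variation came to 4.41%. The SE is the absolute log2 fold change divided by the square root of F, so it rests on the spread over all groups. Replicates differed by more than sampling noise (chi-square per degree of freedom 2.74 to 17.8). The fit was tested on simulated data. Alternatives were DESeq2 1.42.0, its size factors, no filter, other rounding, 2 groups only, a replicate block, each library left out and, added later, the exon share as a covariate.

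The members and lists were chosen with earlier results of these data known. Named were all 10 members, 6 HIF pathway genes, the called gene of largest rise and fall in each list for the comparisons described, and the 6 genes nearest in pattern; some genes that this rule names are not reported here. Promoters came from RefSeq (GRCm38.p6), with 9 of 10 genes matched.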

Additional observations from a re-analysis of the deposited data

How the results depend on the processing

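Of 91 calls among 120 member values, 71 held under every fit that left out 1 library. The number of the 10 genes called stayed within 1.5 times of the reported count in all comparisons but these. With TCA against control, 2 were called, but 7 without a filter on low counts, 4 with the exon share as a covariate, 1 with only the 2 groups compared, and 1 to 6 when libraries were left out in turn (6 without TCA replicate 2). With DehydroLCA against control, 8 were called and 4 to 9 when libraries were left out, 4 without DehydroLCA replicate 1, DehydroLCA replicate 3 or control replicate 2. The cause was not tested.

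Direction turned only in values that had not passed: with the exon share as a covariate Egln1 (0.02) and Vegfa (-0.09) with IsoAlloLCA, and with libraries left out P4ha2 with IsoAlloLCA (-0.18 to 0.11), Vegfa with DehydroLCA (-0.04 to 0.07) and Vegfa for TCA against TCDCA (-0.04 to 0.13). Whether replicate numbers pair the samples is not known and was not tested. Same-numbered libraries of different groups had a median correlation of deviations of 0.0416 (17 of 84 pairs over 0.1). For different-numbered libraries the median was -0.015 (24 of 168 pairs over 0.1). Of 24 libraries 14 correlated best with a library of their own number. With the replicate block the genes of the 10 called were 10 with LCA, 10 with IsoLCA, 4 with IsoAlloLCA and 8 with DehydroLCA. They were 9 with UDCA, 3 with TCA and 10 with TCDCA, and 115 of 120 values kept their side of the threshold. Calls over all tested genes also rose, to 4974, 1393, 7722, 891, 2813, 84 and 1920 in the same order of acids. Without the block they were 4765, 1284, 7618, 760, 2599, 57 and 1712.

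Background counts over all genes moved most with TCA (57 called; 123 without a filter, 101 with DESeq2, 138 with the exon share, 14 with 2 groups, 6 to 114 with libraries left out), with DehydroLCA (760; 1355 with the exon share, 400 to 625), and for TCA against TCDCA (471; 1055 with the exon share, 185 to 737). With libraries left out they fell to 815 of 1284 with IsoLCA, 1692 of 2599 with UDCA and 898 of 1712 with TCDCA, each without control replicate 2, and, without LCA replicate 2, to 2521 of 3957 for IsoLCA against LCA and 1189 of 2317 for DehydroLCA against LCA. Members had at least 144 counts in each library, and 3 libraries a group limit precision.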
